A study of Mus musculus with 2 samples.

Results

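The 1000 regions described here are the distal ATAC peaks found in the most nuclei of fetal mouse testes. They were chosen by detection alone, from 109215 peaks, of which 70039 lay on chromosomes 1 to 19 with a midpoint over 10 kb from every gene start in the deposited feature table. These distal peaks were ranked by the number of barcodes with at least 1 transposase cut, and the first 1000 are called members below. Detection is therefore given as a description only. The working name of the set, distal peaks open in most nuclei, is not borne out by the data: openness in most nuclei was not seen, and many members are not distal to every transcript start. The most detected member had a cut in 1976 of 9833 barcodes (20.1%, exact binomial interval 19.3 to 20.9), and 0 members had a cut in the majority of barcodes. A transcript start was annotated within 100 bp of 427 members.

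Testes of E14.5 embryos were profiled by the 10x multiome assay. The assay reads RNA and accessible chromatin (ATAC, in which a transposase cuts open DNA) from the same nucleus. The embryos came from homozygous *Nr5a1-cre* animals crossed with homozygous *Rosa-tdTomato* females, and no other genotype is analysed here. *Nr5a1-cre* is active in cells that express *Nr5a1*, a nuclear receptor of the somatic gonad. Nuclei came from whole testes, with no sort by the reporter described. There was 1 ATAC library and 1 RNA library of the same nuclei, the sources used here do not say how many embryos were pooled, and no value below has a replicate.

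Open chromatin marks DNA that nucleosomes do not cover. Promoters of widely used genes often lie in CpG islands, stretches rich in the dinucleotide CG that stay unmethylated, and such promoters tend to be accessible in many cell types. Enhancers far from promoters are usually accessible in fewer cell types, and they tend to have little CG. Fetal germ cells differ from somatic cells of the testis in origin and in chromatin, and pass through a phase of genome-wide DNA demethylation.

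To show how the members differ in sequence, 200 bases near the centre of 8 of them are printed here, read from GRCm38 on the plus strand, in stretches free of annotated exons, with each CG dinucleotide in capitals. The first 3 are the members among the 10 most detected that had no transcript start in the GENCODE annotation. They ranked 1, 6 and 10 and came from chr14:65343629-65343828, nearest to *Zfp395*, chr15:85634396-85634595, nearest to *Gm49539*, and chr7:38084974-38085173, nearest to *Ccne1*.
Rank 1, near Zfp395: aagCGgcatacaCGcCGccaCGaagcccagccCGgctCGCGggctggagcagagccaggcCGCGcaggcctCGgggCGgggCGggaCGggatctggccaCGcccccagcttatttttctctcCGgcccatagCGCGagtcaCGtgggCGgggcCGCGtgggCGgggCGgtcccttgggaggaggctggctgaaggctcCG
Rank 6, near Gm49539: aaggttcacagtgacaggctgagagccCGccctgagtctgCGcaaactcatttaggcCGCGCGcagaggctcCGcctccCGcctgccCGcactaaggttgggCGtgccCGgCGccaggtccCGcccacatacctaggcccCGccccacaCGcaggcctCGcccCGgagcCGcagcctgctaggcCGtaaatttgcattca
Rank 10, near Ccne1: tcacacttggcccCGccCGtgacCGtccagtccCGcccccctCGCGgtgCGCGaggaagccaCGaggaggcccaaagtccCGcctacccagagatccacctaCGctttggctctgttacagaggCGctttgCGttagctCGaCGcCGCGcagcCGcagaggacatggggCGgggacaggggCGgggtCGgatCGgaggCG
The next pair are the most detected members at a transcript start, from chr2:33130839-33131038 in *Garnl3* and chr1:92180441-92180640 in *Hdac4*.
Rank 2, Garnl3: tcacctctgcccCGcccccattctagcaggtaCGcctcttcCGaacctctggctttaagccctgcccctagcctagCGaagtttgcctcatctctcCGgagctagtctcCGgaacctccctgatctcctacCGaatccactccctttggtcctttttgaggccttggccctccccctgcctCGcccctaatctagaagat
Rank 3, Hdac4: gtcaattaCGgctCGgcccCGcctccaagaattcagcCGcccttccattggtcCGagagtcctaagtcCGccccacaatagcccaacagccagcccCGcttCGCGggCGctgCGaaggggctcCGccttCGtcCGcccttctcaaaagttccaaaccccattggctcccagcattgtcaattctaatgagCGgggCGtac
The last 3 are the member most uneven across cell classes, from chr2:170036684-170036883 in *Tshz2*, and the members lowest in germ-like nuclei, from chr6:29146669-29146868 in *Rbm28* and chr14:120705472-120705671, nearest to *Gm17613*.
Rank 843, in Tshz2: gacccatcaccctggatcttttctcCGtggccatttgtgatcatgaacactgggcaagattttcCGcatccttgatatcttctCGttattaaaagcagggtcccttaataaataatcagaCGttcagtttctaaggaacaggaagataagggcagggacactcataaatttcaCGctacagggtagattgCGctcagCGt
Rank 977, in Rbm28: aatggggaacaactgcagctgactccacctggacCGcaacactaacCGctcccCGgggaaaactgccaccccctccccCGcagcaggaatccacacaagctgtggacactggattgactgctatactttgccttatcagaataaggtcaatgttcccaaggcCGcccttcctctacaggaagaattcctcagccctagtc
Rank 971, near Gm17613: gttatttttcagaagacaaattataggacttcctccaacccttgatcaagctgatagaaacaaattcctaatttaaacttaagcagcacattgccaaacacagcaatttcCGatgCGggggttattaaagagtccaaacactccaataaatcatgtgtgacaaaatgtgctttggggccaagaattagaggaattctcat
The windows of ranks 1, 6 and 10 hold 24, 18 and 23 CG dinucleotides. Those of *Garnl3* and *Hdac4* hold 8 and 16, and those of ranks 843, 977 and 971 hold 7, 5 and 2. The letters GGGCGG, a motif bound by SP and KLF factors, occur on either strand 5, 3 and 4 times in the windows of ranks 1, 6 and 10. In those of *Garnl3* and *Hdac4* they occur 1 and 3 times. The window of rank 977 holds them 1 time, and those of ranks 843 and 971 not at all.

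The members were detected in 458 to 1976 barcodes, with a median of 602 (6.12%), against a median of 74.0 over all distal peaks. Over 10% of barcodes had a cut in 123 members. No peak of any position was cut in the majority of barcodes, the highest reaching 3903 (39.7%). The library held 58448458 fragments, and the median kept nucleus had 1720 fragments at peaks, so a peak that is open can go uncut in a nucleus. Of the nonzero counts at members in kept nuclei, 91.6% stood for 1 fragment. A kept nucleus had a fragment in a median of 61 members, with a range of 4 to 590. This number rose with depth: when nuclei were split by depth into 4 equal groups with a median of 582, 1341, 2045 and 3224 fragments at peaks, it was 21, 48, 74 and 117. The members are 0.916% of all peaks and held 3.92% of all peak cuts (1500701 of 38243814). A nucleus without a cut is therefore not shown to be closed at that peak.

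The limit of the list fell within a tie. The last 2 members were cut in 458 barcodes (4.66%, 4.25 to 5.09), and so were the first 2 peaks outside the list. In all, 10 distal peaks had this count, of which 3 are members and 7 are not, and their order in the file decided. The last member but one, chr13:23517428-23518234, held the start of the transfer RNA gene *n-TStga1*. The last member, chr13:62964420-62965318, held a start of *2010111I01Rik*. The 2 peaks just outside, chr13:112331041-112331966 in *Ankrd55* and chr16:33584577-33585452 in *Slc12a8*, held no annotated start.

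**Figure D1:**
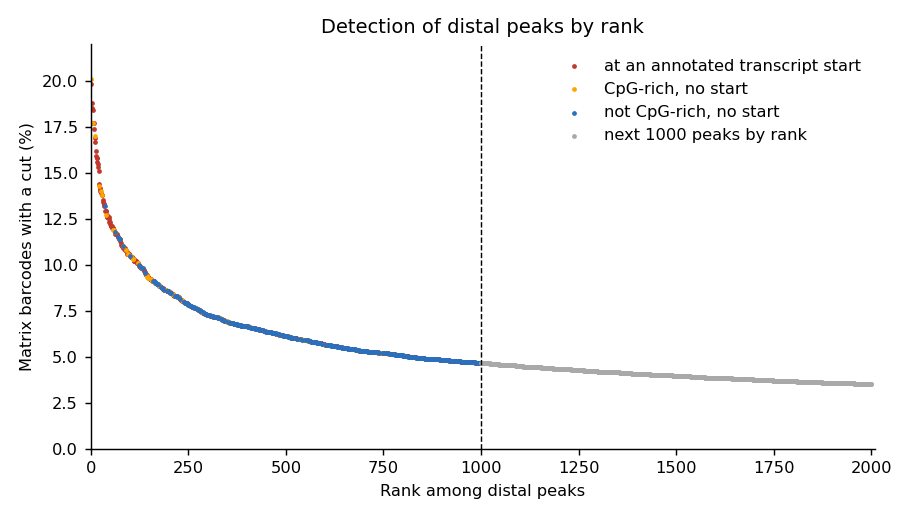
Share of matrix barcodes with a cut (vertical axis, %) against rank among distal peaks (horizontal axis), 1 point per peak, coloured by kind for members and grey for the next 1000 peaks. Members fall from 20.1% at rank 1 to 4.66% at the dashed limit, and the first ranks are nearly all at a transcript start or CpG-rich.

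A transcript start of GENCODE M21 lay within 100 bp of 427 members, 42.7% (39.6 to 45.8), against 4.17% of all distal peaks and 16.8% of the next 1000 peaks by rank. Starts of coding transcripts accounted for 350 of them. RefSeq, a second annotation, gave 433, and 527 members had a start in neither. The rule measured distance to a single position per gene. The feature table gives 12016 of 30364 genes on these chromosomes more than 1 start position, and 2122 of them have starts over 10 kb apart, while the rule used only the leftmost. Within 10 kb of the whole interval of starts of a gene lay 421 members, of which 336 were among the 427 at a start, so the other members at a start would pass the rule with that interval too. Of the 427, 289 were at starts of genes on the minus strand and 138 on the plus strand, whereas all distal peaks at a start were split 1499 to 1422. The genes at these starts were protein-coding for 377 members.

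Members without a GENCODE start were split by sequence. A peak is called CpG-rich here when its GC content is at least 50% and its ratio of observed to expected CG is at least 0.6, limits chosen after the data were seen. By this measure 470 members (47.0%) were CpG-rich, against 1.83% of all distal peaks and 13.8% of the next 1000. The members thus fall into 3 kinds: 427 at a start, of which 355 were CpG-rich, 115 CpG-rich without a start, and 458 with neither. Of the 115, 24 were at a RefSeq start and 65 had no start within 2 kb in either annotation. Of the 458, 22 were at a RefSeq start. The median ratio of observed to expected CG was 0.801 at a start, 0.741 in the CpG-rich members without a start and 0.273 in the remaining 458, and it was 0.217 over all distal peaks.

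The kinds changed with rank. Starts made up 84.0% of ranks 1 to 50, 74.0% of the members from there to rank 100, 62.0% of those from there to rank 250, 41.6% of those from there to rank 500 and 30.2% of the last 500. The median GC content in these 5 bands was 66.3%, 67.1%, 62.8%, 57.7% and 54.6%. Across the 1000 members Spearman's rho of GC content with the number of barcodes was 0.4, and that of width with the number of barcodes was 0.0269. All points share 1 library, and transposition and amplification can favour GC-rich DNA, whose part in the ranking was not tested.

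**Figure D2:**
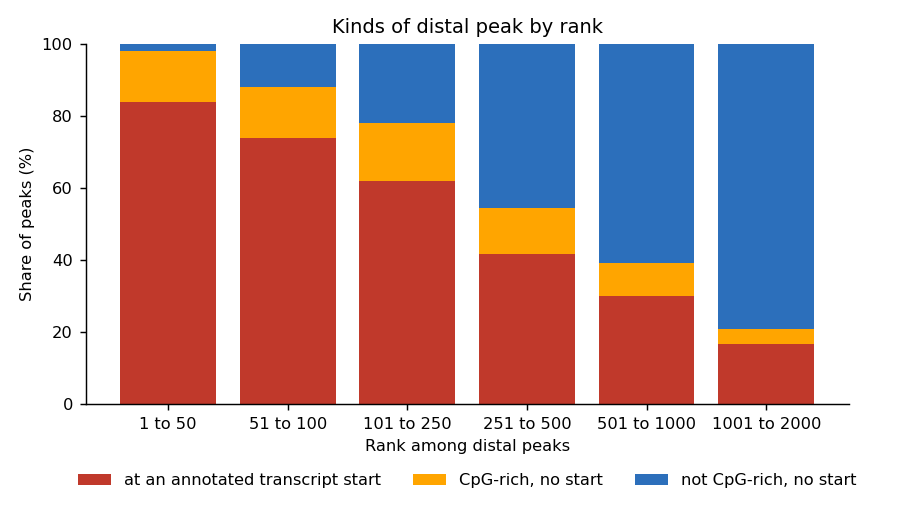
Stacked bars of the share of peaks (%) of each kind in bands of rank among distal peaks, from 50 to 1000 peaks per bar. Peaks at a transcript start make up 84.0% of the first bar and 16.8% of the last, which holds the next 1000 peaks, none of them members.

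The 10 most detected members show the pattern in single regions. Rank 1, chr14:65343176-65344282, lay between genes, 14.9 kb from the start used for *Zfp395*, a zinc finger gene, with no start in either annotation, although its GC content was 63.0% and its ratio of observed to expected CG 0.691. Rank 6, chr15:85634212-85635106, had no GENCODE start, and RefSeq gave a start of *D130051D11Rik*. Rank 10, chr7:38084615-38085532, lay 22.5 kb from the nearest listed start, that of *Ccne1*, which encodes cyclin E1, and had a start in neither annotation. The other 7 were at starts. They were those of *Garnl3*, *Hdac4*, a histone deacetylase, *Camta1*, a calmodulin-binding transcription factor, *Cic*, a transcriptional repressor, *Limk1*, a kinase that acts on the cytoskeleton, *Pja2*, a ubiquitin ligase, and *Tspan14*, a tetraspanin.

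The RNA of the same nuclei was read for the genes at member starts. Of 364 such genes in the feature table, 279 (76.6%) had at least 10 UMIs per 1000000 (CPM) in each of the 7 cell classes defined below. The share was 21.8% of all genes on these chromosomes, of which 12795 were under 1 CPM in each of these classes. Genes were not matched by type, length or detection of their start. The nearest genes of members without a start reached this level in 27.5% of 517 cases, and those of all distal peaks in 25.3% of 16091. The median over genes of the mean CPM was 98.1 for genes with a member at a start and 3.6 for the nearest genes of the rest. For a peak without a start, the nearest gene is a matter of position only.

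The width of the members did not set them apart. The median was 895 bp (interval of the median 893 to 898), with a range of 327 to 1401, and it was 900 bp for the next 1000 and 893 bp for all distal peaks. The widest member, 1401 bp at chr7:130645747-130647147, held a start in *Tacc2*. The next were a 1259 bp peak near *Sdc1*, chr12:8817380-8818638, and a 1207 bp peak at a start of *Tcf4*, chr18:69592449-69593655. The narrowest were a 327 bp peak in *Maml3*, chr3:52102664-52102990, a 492 bp peak near *Ccr1*, chr9:123924686-123925177, and a 603 bp peak at a start of *Prr5*, chr15:84680688-84681290.

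In position, 561 members (56.1%, 53.0 to 59.2) had their midpoint in a gene body, against 52.9% of all distal peaks. The direction turned when the whole peak had to lie in the gene body, with 45.6% of members, 52.0% of all distal peaks and 52.5% of the next 1000. The midpoint of 188 members (18.8%) was in an exon, against 5.22%. Most of these exons were in members at a start (159 of 188). Gene bodies that held a member numbered 491, of which 435 held only 1. *Maml3*, a coactivator of Notch signalling, and *Sept9*, a septin of the cytoskeleton, held 4 each. Members were 22.8 per 1000 distal peaks on chromosome 11 and 7.57 per 1000 on chromosome 10, the extremes of the 19. Another member lay within 10 kb of 105 members, and 85 of the next 1000 peaks had a neighbour of their own set this close.

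Repeats covered little of the members. Soft-masked bases made up a median of 8.18% of a member and 14.0% of a distal peak, and 0 members shared a run of 30 bases with the mitochondrial genome. Of fragments at members in kept nuclei, 56.9% were under 100 bp, the length class of DNA between nucleosomes, against 49.9% at all distal peaks and 56.7% at peaks near gene starts of like detection. By kind of member the share ran from 55.8% to 57.9%.

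Short motifs were searched on both strands in the central 300 bases. The SP/KLF letters GGGCGG occurred in 56.8% of members and 10.2% of all distal peaks. They were in 79.2% of members at a start, 75.7% of CpG-rich members without a start and 31.2% of the rest. The CTCF core, bound by a factor of chromatin loops, was in 3.8% of members and 7.93% of distal peaks. The AP-1 letters TGANTCA were in 3.8% against 9.92%, and the GATA letters AGATAA in 7.8% against 20.3%. The E-box letters CAGCTG, bound by basic helix-loop-helix factors, were in 28.8% of members, 28.9% of all distal peaks, 37.1% of those of at least 100 fragments and 41.6% of the next 1000. They were in 64 of 427 members at a start and 206 of 458 members with neither a start nor CpG richness. The CCAAT letters of NF-Y were near the background, in 32.9% against 32.8%. The median GC content of the 3 kinds, 64.7%, 62.1% and 52.5%, differs beside these shares, and its part in them was not tested.

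To compare cell types, nuclei were classed from their RNA alone, and clusters were named from marker lists. Of 7198 kept nuclei, 2579 were progenitor-like, 882 germ-like, 780 Leydig-like, 708 Sertoli-like and 432 surface epithelium-like. Cluster 1 (1270 nuclei) and cluster 7 (299 nuclei) had no clear name and keep their numbers. Cluster 1 had the highest level of 4 of 6 markers of mesonephric mesenchyme and 3 of 6 contractile markers. Cluster 7 had a median of 18341 UMIs and the highest level of 3 of 5 mesonephric tubule markers. That list summed to 42.8 CPM, against 110 in surface epithelium-like and 61.7 in germ-like nuclei. Germ markers summed to 483 CPM in cluster 7, against 1998 in germ-like and 25.5 to 37.4 in the other 5 classes used. Sertoli markers summed to 142 CPM there, against 430 in Sertoli-like and 33.0 to 55.4 in the other classes used. Supporting-cell markers summed to 139 CPM there, against 140 in surface epithelium-like and 11.6 to 67.3 in the other classes used. Classes of 91 nuclei and fewer (erythroid-like, pericyte-like, immune-like, endothelial-like) were left out of the comparison. All 7 markers of the Leydig, Sertoli, germ and surface epithelium lists peaked in their own class, and 5 of 7 progenitor markers did. Levels of a peak are fragments per 1000000 fragments at peaks of the class. Progenitor-like nuclei and cluster 1 are 35.8% and 17.6% of nuclei, so a ranking over all barcodes favours peaks open in these classes.

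Evenness is given as the coefficient of variation (CV) of the level over the 7 classes after counting error is taken off, where 0 is no spread beyond that error. The median was 0.241 over members (0.224 to 0.267), 0.462 over the next 1000 peaks, 0.493 over distal peaks of at least 100 fragments and 0.145 over those of at least 500. It was 0.149 at starts (0.137 to 0.168), 0.14 in CpG-rich members without a start and 0.457 in the remaining 458 (0.431 to 0.491). The 8426 peaks within 10 kb of a gene start that had like detection had a median of 0.114. Like detection means within the range of the members only: these peaks were cut in a median of 753 barcodes, against 602 for members. By their medians, members at starts and CpG-rich members lay nearer to peaks at gene starts, and the rest nearer to the next distal peaks in rank. Rank and evenness were linked, with a Spearman's rho of -0.414 between the number of barcodes and the CV across members. The part of the ranking in the lower CV of members than of the next 1000 was not tested. For 89 members the CV was at or below 0. With levels per nucleus, which keep the depth of each class, the median over members was 0.546.

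A member was called uneven when its highest class was at least 2 times the mean over classes. This held for 104 members (10.4%, 8.58 to 12.5), against 28.1% of the next 1000 peaks and 38.3% of distal peaks of at least 100 fragments. In distal peaks of at least 500 fragments the share was 2.86%, and in the peaks near gene starts 0.949%. Only 420 distal peaks reach 500 fragments and most are members themselves, so the other backgrounds were added after the data were seen. Unlike the CV, this measure has no correction for counting error, and the sets differ in depth. The median was 469 fragments in the classes for members, 294 for the next 1000 peaks and 144 for distal peaks of at least 100 fragments. It was 648 for those of at least 500 and 581 for the peaks near gene starts. The part of depth in these shares was not tested. Of the 104, 95 had neither a start nor CpG richness, and 7 were at a start. The highest class was progenitor-like in 66, cluster 1 in 16, surface epithelium-like in 10, germ-like in 7, Sertoli-like in 3 and Leydig-like in 2. This split was not counted for uneven peaks outside the members. Over all members, even or not, the highest class was progenitor-like in 21.4% and germ-like in 25.2%. In distal peaks of at least 100 fragments these shares were 26.6% and 9.48%. The share depends on the classes. It was 42.0% when the 4 small classes were included. These hold 80615 to 225126 fragments at peaks each, against 667091 or more in the 7 used. At resolution 0.6 it was 5.9%, again over 7 classes, with contractile-like and mesonephric mesenchyme-like classes and without clusters 1 and 7.

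Levels in the classes differed by kind of member. The median level over members at a start was 47.4 fragments per 1000000 in germ-like nuclei and 36.9 to 40.5 in the other 6 classes. Over the 458 members with neither feature it was 10.8 in germ-like, 19.9 in Sertoli-like, 24.4 in Leydig-like, 28.1 in cluster 7, 29.2 in surface epithelium-like, 37.0 in cluster 1 and 39.9 in progenitor-like nuclei. The CpG-rich members without a start ranged from 33.1 in Sertoli-like to 38.8 in germ-like nuclei. Among the 458, the progenitor-like level was above the germ-like level in 405 and at least 2 times it in 333. The reverse at 2 times held in 4. The ranking over all barcodes favours peaks open in progenitor-like nuclei, which are 35.8% of nuclei, over those open in germ-like nuclei (12.3%). These counts were not made for peaks outside the members, so they are a description of the set as ranked. Progenitor-like nuclei had the highest and germ-like nuclei the lowest median also in the next 1000 peaks (25.7 and 8.36) and in distal peaks of at least 100 fragments (12.4 and 4.85). In the 420 distal peaks of at least 500 fragments the germ-like median was the highest (51.5, against 50.9 in progenitor-like nuclei), and over all distal peaks cluster 1 (3.85) was above progenitor-like (3.69).

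**Figure D3:**
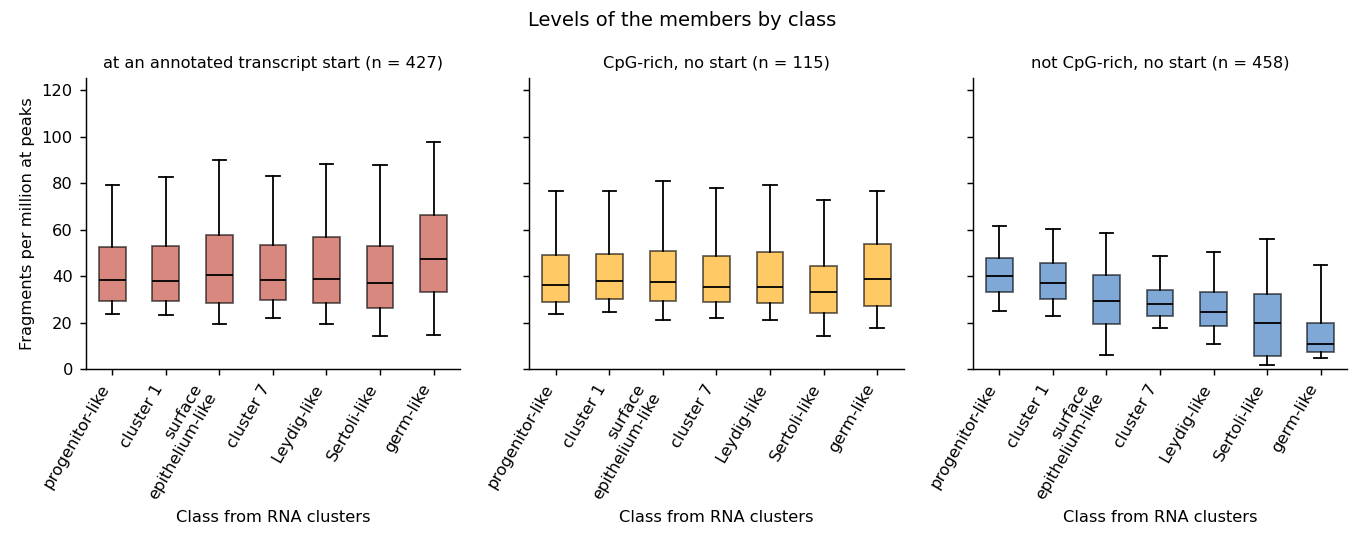
Level of the members (fragments per 1000000 fragments at peaks, vertical axis) in 7 classes of nuclei, in 1 panel per kind. Boxes span the quartiles with the median as a line, and whiskers run from the 5th to the 95th percentile over members. Medians for members at a start are 47.4 in germ-like and 36.9 to 40.5 in the other classes, while members with neither a start nor CpG richness fall from 39.9 in progenitor-like to 10.8 in germ-like nuclei.

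The germ ratio is the germ-like level divided by the mean of the other 6 classes. It was at most 0.5 in 343 members (34.3%, 31.4 to 37.3), against 58.3% of the next 1000 peaks and 55.4% of distal peaks of at least 100 fragments. In distal peaks of at least 500 fragments the share was 22.1%, and in the peaks near gene starts 3.38%. This call has no correction for counting error, and the sets differ in depth as given above. The ratio was at most 0.5 in 310 of the 458 members with neither feature (67.7%), 27 of 427 at a start (6.32%) and 6 of 115 CpG-rich members without a start (5.22%). The median ratio was 0.368 (0.344 to 0.392), 1.18 (1.15 to 1.22) and 1.03. Low levels were not confined to germ-like nuclei. Sertoli-like nuclei were the lowest class in 329 members and germ-like nuclei in 270. Among the 458, these counts were 163 and 201. They have no correction for counting error and were not made for peaks outside the members. The median member had 30 fragments in Sertoli-like and 53 in germ-like nuclei, and 61 members and 1 member had at most 3 there. The ratio above 1 at starts depends on the scaling. Fragments at peaks are 31.2% of fragments in germ-like nuclei and 35.7% to 40.7% in the other classes. Scaled by fragments outside peaks the ratio was 0.875, and per nucleus it was 1.14, while that of the 458 was 0.268 and 0.346. Germ-like nuclei held progenitor markers at a summed 621 CPM, against 3220 in progenitor-like, 368 in Sertoli-like and 891 to 1889 in the other classes used. Leydig markers were at 328 CPM in germ-like nuclei, within the 307 to 545 of the other classes used outside Leydig-like nuclei. Sertoli markers were at 33.0 in germ-like nuclei, the lowest of the classes used. Without doublet removal the germ-like class gained a cluster of 360 nuclei with a median of 27826 UMIs, 8.7% of members had a ratio of at most 0.5, and the median ratio was 0.624 for the 458 and 1.09 at starts. With a stricter automatic removal, 37.8% did, and these medians were 0.213 and 1.2. Both settings also changed the classes compared. Without removal there were 9, with immune, endothelial and cluster 11 added and cluster 7 absent. With automatic removal there were 6, without cluster 7. In the main setting, leaving out cluster 7 alone gave 34.0%, and 0.358 for the 458. Using classes of at least 30 nuclei gave 31.1% and 0.434. The parts of doublets and of the classes in these shifts were not separated. The part of somatic fragments in germ-like nuclei in these levels was not tested.

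CG content tracked both measures. Spearman's rho across the 1000 members was 0.77 between the observed over expected CG ratio and the germ ratio, and -0.67 between the CG ratio and the CV. Within the 458 members with neither feature, rho with the germ ratio was 0.567. The members share the library, their classes and their scaling totals, so rho is a description. Among these 458, the E-box letters were in 52.3% of the 310 low in germ-like nuclei and 29.7% of the other 148. The GATA letters were in 17.1% and 8.11%, the TEAD letters GGAATG in 27.4% and 13.5%, and the SP/KLF letters in 21.6% and 51.4%. In distal peaks of at least 100 fragments the shares were 37.1% for E-box, 17.1% for GATA, 20.5% for TEAD and 19.5% for SP/KLF. The GATA share of the 310 was thus that of this background. The CTCF core was in 3.23% and 6.76%, and the NF-Y letters in 31.6% and 35.8%. Not every motif searched is listed here, and the part of GC and CG content in these shares was not tested.

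**Figure D4:**
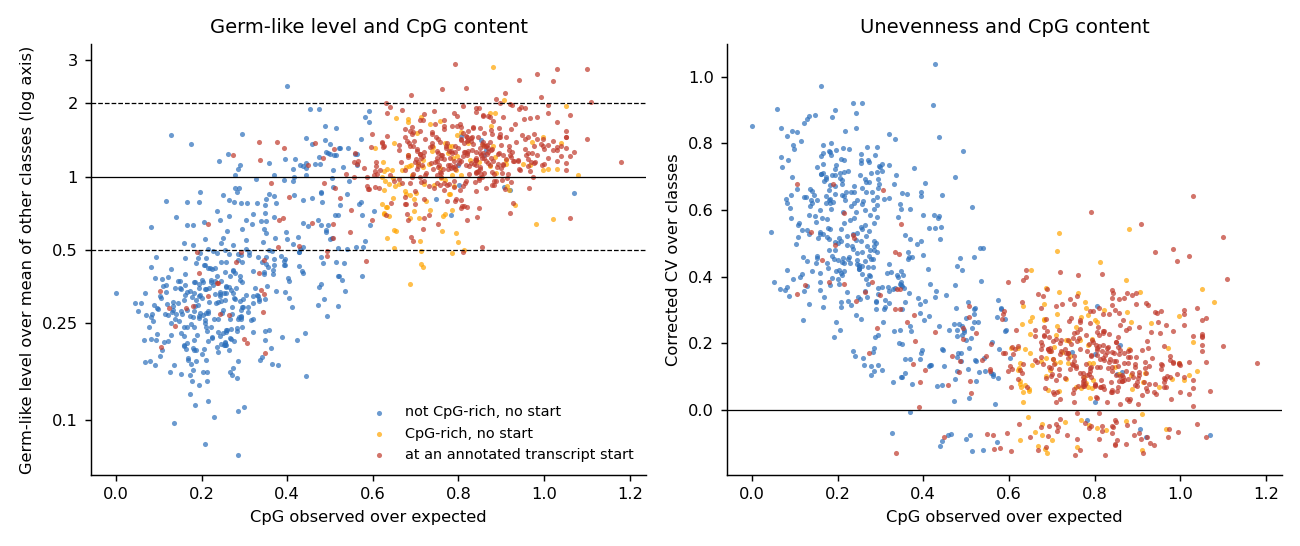
Germ-like level over the mean of the other classes (left, log axis) and corrected CV over classes (right) against the observed over expected CG ratio, 1 point per member, coloured by kind. Dashed lines mark ratios of 0.5 and 2, and members with little CG lie low on the left and high on the right, with a median germ ratio of 0.368 against 1.18 at starts.

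Single members show the range. Rank 1, near *Zfp395*, had levels of 118 in progenitor-like (109 to 128), 120 in cluster 1, 129 in cluster 7, 135 in germ-like, 139 in Leydig-like, 144 in surface epithelium-like and 154 in Sertoli-like nuclei (131 to 180). Its highest class was 1.15 times the class mean, with a CV of 0.0591. The *Hdac4* member ranged from 108 to 136 with a CV of 0.0247. Among the most even members by CV were chr11:8663865-8664778 at a start of *Tns3* and chr1:134098872-134099784 at a start of *Gm38140*, with CVs of -0.137 and -0.131.

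The 5 most uneven members were all highest in progenitor-like nuclei, the largest class, which the ranking over all barcodes favours. The first, chr2:170036333-170037235, lay in the body of *Tshz2*, a zinc finger homeobox gene, outside exons. It had 45.6 in progenitor-like (40.0 to 51.9), 31.2 in cluster 1, 7.55 in germ-like and 6.72 in Leydig-like nuclei. In Sertoli-like nuclei it had 2 fragments, a level of 1.89. Cluster 7 (13.2 to 29.1) lay between cluster 1 and germ-like nuclei. In surface epithelium-like nuclei 0 fragments were found, which allows a level of up to 4.5 by the limit of 3 fragments and 5.53 by the exact Poisson interval. Its CV was 1.04 and its mean level outside progenitor-like nuclei 11.2. The others were chr2:109559148-109560042 between genes, with 53.0 in progenitor-like nuclei and 12.9 on average elsewhere, chr6:116845880-116846809 near *Tmem72* with 49.3 and 12.4, chr1:14794765-14795839 near *Msc* with 59.8 and 15.8, and chr7:70218890-70219815 with 55.3 and 14.3.

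The members with the largest ratio of 1 class to the mean of the others were not always highest in that class alone. In Sertoli-like nuclei, the supporting cells of the testis cords, a peak near *Cystm1*, chr18:36328356-36329275, reached 102 (83.8 to 123) against a mean of 26.3 elsewhere. In Leydig-like nuclei, which make androgens, a peak near *Arf2*, chr11:104024490-104025371, reached 57.1 (44.4 to 72.4), with 48.2 in progenitor-like nuclei (42.3 to 54.5), an overlapping interval, and 3.0 in surface epithelium-like nuclei. In surface epithelium-like nuclei a peak near *Ccdc42*, chr11:68623229-68624258, reached 80.9 (60.8 to 106) against 23.5 elsewhere. The peak with the largest ratio for cluster 1, chr7:25835026-25835857, had 46.2 there (38.3 to 55.3) and 40.0 in progenitor-like nuclei (34.7 to 45.9), with overlapping intervals. The largest ratio for cluster 7 was 1.78, at chr2:31371215-31372115 in *Hmcn2*, where cluster 7 (31.1) was below progenitor-like nuclei (46.6) and cluster 1 (33.1). The intervals cover counting error only.

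The members lowest in germ-like nuclei had few fragments there. In *Rbm28*, which encodes an RNA-binding protein, chr6:29146418-29147119 had 3 fragments in germ-like nuclei, a level of 1.62 (0.334 to 4.73), against 12.0 to 37.1 in the other classes. The ratio was 0.0717. Near *Gm17613*, chr14:120705105-120706038 had 2.16 in germ-like nuclei (0.588 to 5.52) against 7.57 in Sertoli-like, 10.1 in Leydig-like, 44.3 in cluster 1 and 48.0 in surface epithelium-like nuclei. A peak at chr2:93082697-93083635 near *Gm13802* had a ratio of 0.0972, and its level was 2.7 in germ-like (5 fragments) and 1.89 in Sertoli-like nuclei (2 fragments), against 23.5 to 45.0 in the others.

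**Figure D5:**
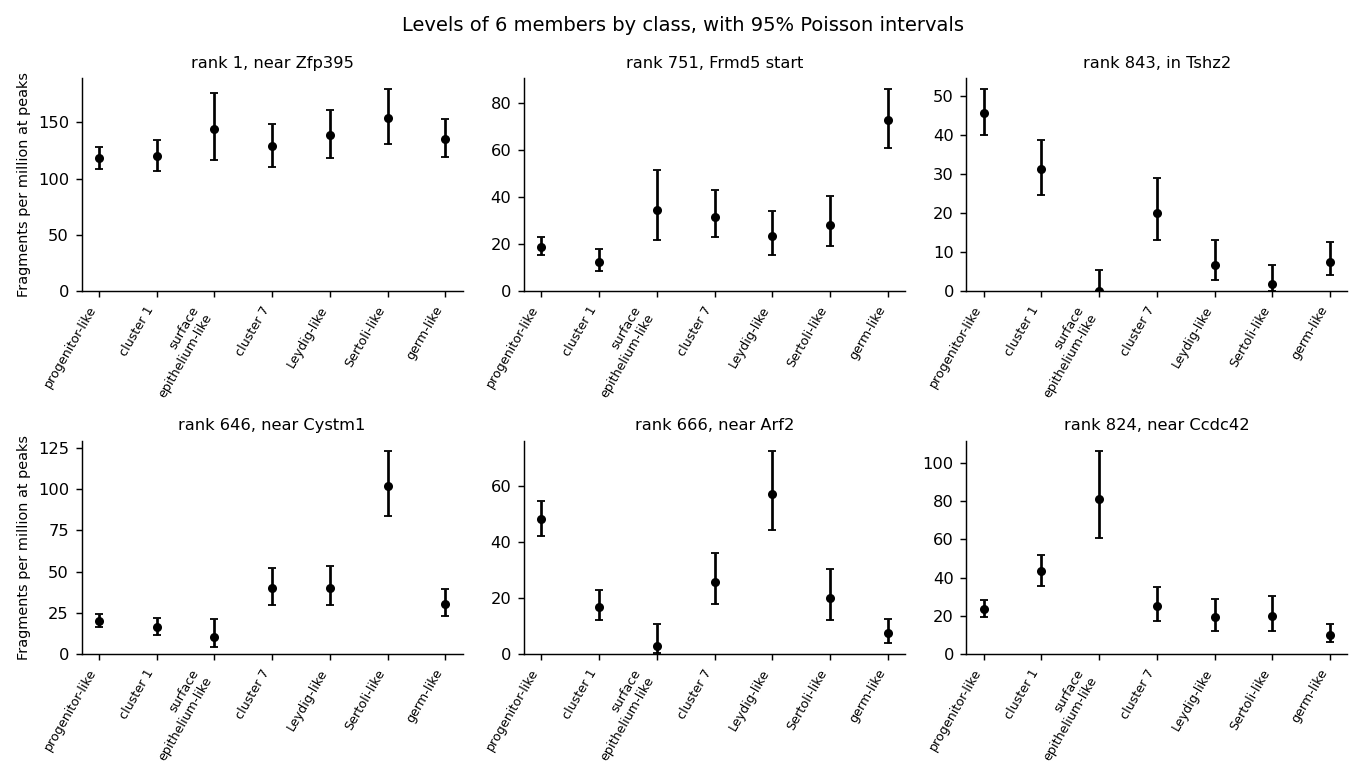
Levels (fragments per 1000000 fragments at peaks) of 6 members in 7 classes, with exact 95% Poisson intervals, which cover counting error. The peak near *Zfp395* is 118 to 154 in every class, whereas the others are highest in germ-like (*Frmd5*, 72.8), progenitor-like (*Tshz2*, 45.6), Sertoli-like (*Cystm1*, 102), Leydig-like (*Arf2*, 57.1, with an interval that overlaps that of progenitor-like nuclei) or surface epithelium-like nuclei (*Ccdc42*, 80.9).

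A germ ratio of at least 2 was found in 18 members (1.8%), against 3.9% of the next 1000 peaks and 3.82% of distal peaks of at least 100 fragments. In distal peaks of at least 500 fragments the share was 0.714%, and in the peaks near gene starts 1.69%. Of the 18, 15 were at starts. There the median ratio was 1.18 scaled by fragments at peaks and 0.875 scaled by fragments outside peaks. The count of 18 and the ratios below use fragments at peaks, and they were not computed under the other scaling. The highest was at a start of *Frmd5*, chr2:121806643-121807483, with 72.8 in germ-like nuclei (61.0 to 86.1) and 12.7 to 34.5 elsewhere, a ratio of 2.91. The others given here were named after their values were seen. The next by ratio was a CpG-rich member without a start near *Bicdl1*, chr5:115732220-115733085, with 76.6 in germ-like nuclei and 22.7 to 37.5 elsewhere, a ratio of 2.81. At a start of *Rimklb* the germ-like level was 90.0 (76.9 to 105), a ratio of 2.77. The lowest of the other classes was Sertoli-like (7.57) and the highest was surface epithelium-like, with an interval of 42.8 to 81.7. The intervals of the germ-like and surface epithelium-like levels overlap. At a start of *Grb10*, an imprinted gene whose product binds insulin receptors, the levels were 57.7 in germ-like nuclei and 18.0 to 25.2 elsewhere, a ratio of 2.76. At a start of *Strbp*, which encodes an RNA-binding protein of spermatids, they were 105 in germ-like and 33.6 to 67.2 elsewhere, a ratio of 2.03, which is among the lowest of the 18.

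Of 40 regulators of gonad and mesenchyme development, 7 members had one as the nearest gene (0.7%), against 0.43% of all distal peaks, 0.595% of those of at least 100 fragments and 0.8% of the next 1000. The body of one held 8 members (0.8%), against 0.4% of all distal peaks and 0.9% of the next 1000. The shares of members were thus not above those of the next peaks in rank. In *Gli2*, a transcription factor of hedgehog signalling, chr1:119033489-119034381 had 59.6 in progenitor-like, 52.8 in cluster 1, 12.9 in germ-like and 7.57 in Sertoli-like nuclei. A second member at a *Gli2* start, chr1:118982238-118983327, had the same order of germ-like (11.9) and Sertoli-like (5.68) below progenitor-like (51.5) and cluster 1 (60.1). *Pknox2*, a homeodomain gene, held 3 members, of which the one at a GENCODE start was the most even (CV 0.182). Another had a RefSeq start only, that of *Gm34538*, and a CV of 0.595. Near *Tcf21*, a basic helix-loop-helix factor of mesenchyme, chr10:22839227-22840158 had 49.3 in progenitor-like, 53.2 in cluster 1 and 5.93 in germ-like nuclei. In Sertoli-like nuclei it had 1 fragment, a level of 0.946 (0.024 to 5.27). Members at starts of *Gata4*, a factor of somatic gonad cells, and *Tcf4* had germ ratios of 0.812 and 0.771. Those 93.7 kb from *Wnt5a*, a secreted signal, and in the body of *Nfix*, a nuclear factor I gene, had 0.279 and 0.357.

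Thinning gave each nucleus the same number of fragments at peaks, so it shares the scaling of the levels, under which the germ ratio at starts was above 1. With 1000 fragments at peaks drawn per nucleus, and 1964 shallower nuclei left out, members had a fragment in a median of 3.29% of kept nuclei (6.2% before thinning), with a range of 2.04% to 12.1%. Members at a start had a median of 3.79% in progenitor-like and 4.65% in germ-like nuclei. Members with neither a start nor CpG richness had 3.84% in progenitor-like, 3.58% in cluster 1, 2.33% in Leydig-like, 1.8% in Sertoli-like and 0.845% in germ-like nuclei. For these members the order of the classes was that of the levels, which did not hold at starts, where surface epithelium-like nuclei were second by level (40.5) and had 3.76% after thinning, below Leydig-like nuclei (3.96%). In Sertoli-like nuclei 8 members, and in surface epithelium-like nuclei 2, had no fragment at full depth. A count of 0 allows a level of up to 2.84 and 4.5 there.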

How the data were processed

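The authors ran Cell Ranger ARC 2.0.1 on mm10, per the labels, and deposited raw counts for 9833 barcodes (UMIs of each gene, transposase cuts in each peak) and a list of unique fragments. All 9833 barcodes are shared by the RNA and ATAC data. Their peaks were called on the pooled nuclei. Deposited fragments had 1.09 read pairs each. Cuts were turned into fragments (cuts divided by 2, rounded up). The study's own quality thresholds were applied (over 500 genes, over 250 and under 25000 fragments at peaks, over 20% of fragments at peaks, under 10% mitochondrial, 10% ribosomal and 0.5% haemoglobin UMIs), which 7668 passed, and the 470 with the highest Scrublet scores were removed as doublets, a substitute for the study's own caller. Its limit on fragments in blacklisted regions and its ambient RNA correction were not applied. RNA clusters used scanpy 1.11.5 (2000 variable genes, 30 components, 20 neighbours) and Leiden in igraph 0.11.9 at resolution 0.3, with classes of at least 100 nuclei used. Names came from 14 marker lists. Peak annotation used GENCODE M21 and RefSeq on GRCm38, which has the coordinates of mm10. Sequences are RefSeq's GRCm38. Intervals are exact binomial or Poisson at 95%, and medians have binomial order-statistic intervals over peaks. Those of levels and of shares of barcodes cover counting error only. Those of shares of members and of medians treat the members as independent draws from 1 library, so they are a description. A count of 0 is given the limit of 3 fragments. With 1 library per assay, no test was made. The evenness measure was tested on simulated data.

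Peaks named are the 5 of highest rank, those at the limit, the 3 widest and narrowest, the 5 most uneven and 3 most even (1 of these is not reported here), the member with the largest ratio for each class, and the 3 lowest in germ-like nuclei, besides 40 listed regulators. Members and lists were chosen with earlier results of these data known.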

Additional observations from a re-analysis of the deposited data

Results flagged for a closer look

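Fragments at the members were also found outside the barcodes of the count matrix, in data that no comparison above used. They numbered 30136, which is 3.67% of fragments at members, against 4.27% at all distal peaks and 3.71% at peaks near gene starts of like detection. Over the whole library, 93.6% of fragments were in matrix barcodes. No control sample was analysed here, and the source of the fragments outside the matrix barcodes was not tested.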

How the results depend on the processing

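With the whole interval of starts in place of the leftmost start, 579 members stayed, 11.8% of the new set were at a start, the median width was 900 bp, the median CV 0.414, 20.5% were uneven and 55.5% had a germ ratio of at most 0.5. At over 20 kb these were 644 members, 33.6% at a start, a CV of 0.333, 16.0% and 44.2%. The top 500 (500 members by construction) gave a CV of 0.161, 3.8% and 23.6%, and the top 2000 gave 0.36, 19.2% and 46.3%. Ranking per kb of width gave a width of 889 bp. Ranking by cuts, per kb or in kept nuclei kept 967, 928 and 974 members.

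Median CV, uneven share and low-germ share were 0.302, 17.6% and 37.8% with automatic doublet removal, 0.345, 42.0% and 31.1% with classes of at least 30 nuclei. Levels per nucleus gave a CV of 0.546 and 61.4% uneven, and scaling by fragments outside peaks 14.2% uneven and 42.0% low in germ. No doublet removal gave 8.7% low in germ, cuts a CV of 0.271, leaving out germ-like nuclei 0.177, and resolution 0.6 gave 5.9% uneven. At 1.5-fold, 39.8% were uneven and 41.3% low in germ. The germ ratio at starts reversed to 0.875 when scaled by fragments outside peaks. Thinning to 2000 fragments gave 6.54% and no thinning 6.2%. Fragments under 120 bp were 63.6%, those under 100 bp in all matrix barcodes 57.1%, whole peaks in gene bodies 45.6% and coding starts 35.0%. Except where the alternative itself changes the classes, the peaks or the scale, the cause was not tested. The doublet alternatives changed both the nuclei kept and the classes compared, and these parts were not separated. Members at starts stayed more even than those with neither feature, and had the higher germ ratio, under each of the 9 alternatives run for both.

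The alternatives with RefSeq starts, without cluster 7, for each kind of member, and for starts at other distances were added after the data were seen. Depth limits the small classes most, with a median of 23 fragments per member in surface epithelium-like nuclei. No paired analysis was possible because there is 1 library per assay.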
